A study of Mus musculus with 6 samples.

Results

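Of the genes described here, 6 act on messenger RNA decay and 4 encode MAP kinase phosphatases. They were taken by symbol from a fixed list of 10 names, each name matched exactly 1 row, and the tables hold 46329 distinct symbols in all. The 10 genes are Zfp36, Zfp36l1 and Zfp36l2, then Btg1, Btg2 and Tob1, then Dusp1, Dusp2, Dusp5 and Dusp6. RNA was sequenced from neutrophils that were sorted by flow cytometry from the marrow of male wild-type (WT) mice. One group, CUMS, had gone through chronic unpredictable mild stress, a rodent protocol in which changing mild stressors follow each other over 4 weeks, and the other group is labelled Control. Each group held 3 libraries. The sources used here give no age, strain or gate marker, and nothing says that the 3 libraries of a group came from separate mice. The p-values therefore measure the spread between these libraries, which may be technical in part.

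The 3 Zfp36 proteins bind AU-rich elements, short runs of A and U in the 3′ untranslated region (3′UTR) of cytokine and early-response messages, and bring in the CCR4-NOT complex, which shortens the poly(A) tail. Btg and Tob proteins are adaptors of the same tail-shortening enzymes, binding to the Caf1 deadenylase subunits. Dual-specificity phosphatases (DUSPs) remove phosphates from MAP kinases and so end the signal: Dusp1, Dusp2 and Dusp5 act in the nucleus, and Dusp6 acts on ERK in the cytoplasm. The kinases in turn regulate tristetraprolin, the product of Zfp36, by phosphorylation, and many of these genes are transcribed within minutes of a stimulus.

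The AU-rich elements below are shown because the Zfp36 proteins read such letters, and several of the 10 messages carry them. The search used the letters TATTTAT and the longer TTATTTATT, sense strand only, in the 3′UTR of 1 annotated transcript per gene (GENCODE M21, GRCm38). Every TTATTTATT contains a TATTTAT. Capitals mark the element, with up to 10 bases on each side, and the sequence is written 5′ to 3′ on the gene's strand. Where a gene held TTATTTATT, only that element is printed, and its other copies of TATTTAT are not shown.
Zfp36, chr7:28376951-28376979, minus strand: tatgacgactTTATTTATTgtattaagat
Zfp36l1, chr12:80108167-80108195, minus strand: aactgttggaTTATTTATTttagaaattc
Zfp36l2, chr17:84184914-84184942, minus strand: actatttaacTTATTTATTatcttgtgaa
Btg2, chr1:134077250-134077276, minus strand: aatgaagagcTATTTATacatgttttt
Dusp1 (upstream element), chr17:26506159-26506187, minus strand: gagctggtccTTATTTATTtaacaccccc
Dusp1 (downstream element), chr17:26505870-26505898, minus strand: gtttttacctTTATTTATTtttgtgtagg
Dusp2, chr2:127338305-127338331, plus strand: cagcactttaTATTTATatagaacatt
The longer element was found in 4 of the 10 genes, all 3 Zfp36 genes and Dusp1, against 6.93% of all protein-coding 3′UTRs. The shorter one was found in 6 of the 10, which adds Btg2 and Dusp2, against 25.5% of all. Zfp36, Zfp36l1, Zfp36l2 and Dusp1 each held 3 copies of TATTTAT, and Btg2 and Dusp2 held 1 each. Longer 3′UTRs held these letters more often. Among 3′UTRs within 10% of the gene's own length, the longer element was in 4.8% for Zfp36, 9.32% for Zfp36l1, 9.47% for Zfp36l2 and 4.43% for Dusp1. The shorter element was in 44.5% of those of the length of Btg2 and 15.1% for Dusp2. Btg1, Tob1, Dusp5 and Dusp6 held neither, which says only that those letters are not in the transcript searched. A match is a description of the letters and not a measured binding site.

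The next sequences are the windows from 250 bases before to 50 after the RefSeq start (GRCm38.p6) of the 3 genes whose transcript level changed. They are written 5′ to 3′ on the gene's strand, and capitals mark matches to 5 motifs of early-response factors searched on both strands: the cAMP response element TGACGTCA, the AP-1 site TGANTCA, the EGR site GCGNGGGCG, the CArG box and the NF-kB site.
Zfp36, chr7:28379179-28379478, minus strand: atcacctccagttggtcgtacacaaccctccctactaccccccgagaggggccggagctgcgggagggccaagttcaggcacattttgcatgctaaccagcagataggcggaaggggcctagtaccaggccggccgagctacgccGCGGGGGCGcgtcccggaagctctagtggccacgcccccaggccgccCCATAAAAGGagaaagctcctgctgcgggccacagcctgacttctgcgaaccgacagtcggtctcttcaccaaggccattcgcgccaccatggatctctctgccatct
Btg2, chr1:134079106-134079405, minus strand: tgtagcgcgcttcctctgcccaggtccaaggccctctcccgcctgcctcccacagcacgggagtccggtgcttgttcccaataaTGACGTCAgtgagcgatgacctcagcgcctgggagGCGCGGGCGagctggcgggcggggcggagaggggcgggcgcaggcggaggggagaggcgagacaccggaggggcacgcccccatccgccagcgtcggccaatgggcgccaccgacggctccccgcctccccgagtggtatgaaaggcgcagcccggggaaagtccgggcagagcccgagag
Dusp6, chr10:99262981-99263280, plus strand: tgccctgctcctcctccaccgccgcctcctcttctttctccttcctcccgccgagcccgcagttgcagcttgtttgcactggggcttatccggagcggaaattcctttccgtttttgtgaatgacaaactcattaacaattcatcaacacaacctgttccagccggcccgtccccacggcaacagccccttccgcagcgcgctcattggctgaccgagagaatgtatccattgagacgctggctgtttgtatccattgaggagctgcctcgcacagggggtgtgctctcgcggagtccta
The Zfp36 window held a CArG box starting 58 bases before the start and an EGR match 105 bases before it. The Btg2 window held a cAMP response element at 166 bases before the start and an EGR match at 131. Dusp6 held none of the 5 motifs. Among the other genes, Dusp1 held a cAMP response element at 143, Zfp36l1 an AP-1 match at 129, Dusp2 an EGR match at 98, and Dusp5 a CArG box at 82 and at 72 bases before the start. Btg1 and Tob1 held none, and there was no window for Zfp36l2, so 9 of the 10 genes were searched. Of 32851 promoter windows of the same length, 1.79% held the cAMP response element, 7.81% the AP-1 site, 1.63% the CArG box, 5.55% the EGR site and 4.51% the NF-kB site. No occupancy was measured in these libraries, and nothing about the factors follows from a match or its absence.

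Levels are given as CPM, the estimated counts scaled by library total and TMM factor. Estimated counts summed to between 85799370 and 109757558 in CUMS libraries and between 78845457 and 103483602 in Control libraries. About 4 of these units were taken to stand for 1 read pair, because multiples of 4 were in excess. That factor was assumed and not measured. With it, each library held between 19711364 and 27439390 read-pair equivalents. A gene was called changed at a Benjamini-Hochberg adjusted p under 0.05 over all 15777 genes tested, in edgeR's quasi-likelihood test. All 10 genes passed the filter on low counts. Across all genes, 710 were called (4.5%), 338 lower in CUMS (2.14%) and 372 higher (2.36%). The CPM of the 2 groups did not overlap for 3618 genes (22.9%), and 2674 (16.9%) had an unadjusted p under 0.05.

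Of the 10 genes, 3 were called. In CUMS neutrophils Zfp36 fell by 22.6% and Btg2 fell by 19.7%, while Dusp6 rose by 25.9%. The other 7 were not called, 8 of the 10 fold changes were negative, and the groups did not overlap for 5 genes. The same 5 had an unadjusted p under 0.05, since Zfp36l2 and Dusp1 joined the 3 called genes there. The median log2 fold change of the 10 was −0.07, beside −0.0073 over all genes tested. Calls were more frequent among abundant genes: of 1927 genes with a mean of at least 100 CPM, a level chosen after the values were seen, 239 were called (12.4%), and 7 of the 10 genes lay in that class. In bulk RNA, fewer cells of a type and less RNA per cell cannot be told apart.

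**Figure D1:**
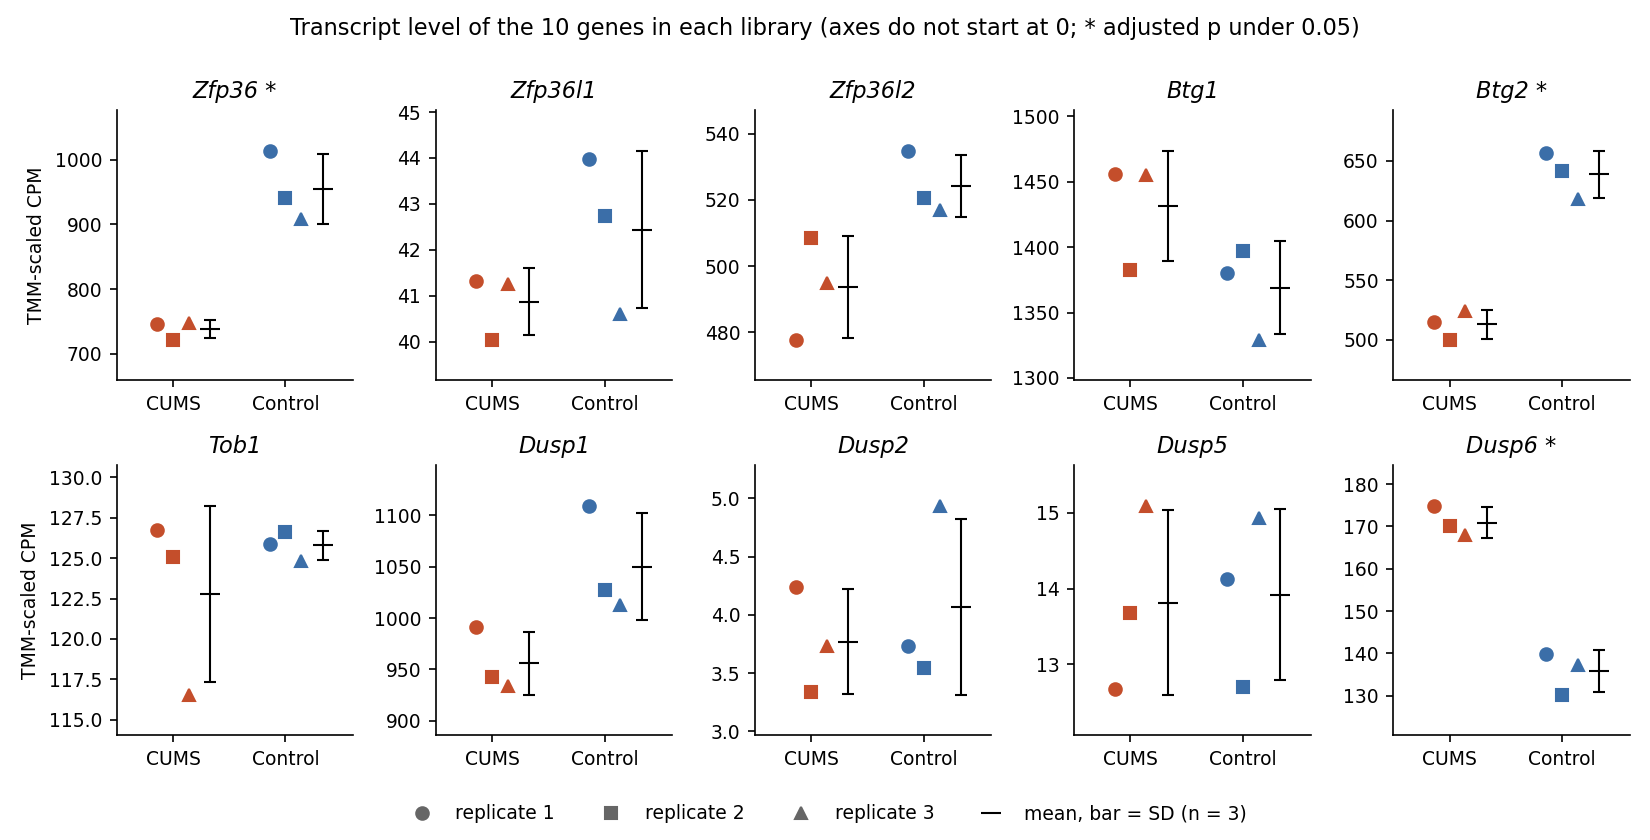
TMM-scaled CPM of each of the 10 genes in the 3 CUMS (left, red) and 3 Control (right, blue) libraries, 1 symbol per library, with mean and SD beside them. Zfp36 and Btg2 lay lower in every CUMS library than in any Control library, and Dusp6 lay higher.

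The neutrophil label was checked with 11 marker genes, whose summed level ranged from 101900 to 128800 CPM in CUMS and from 121800 to 133700 CPM in Control, with 2 called lower (Ltf and Camp). Markers of other cell types moved with the groups. The 12 erythroid markers summed to between 2518 and 3004 CPM in CUMS and between 1304 and 1872 CPM in Control, and 7 were called higher. Of 10 monocyte markers 3 were called higher, 9 had positive fold changes, and their median log2 fold change was 0.40. Their sums overlapped (670 to 753 CPM in CUMS and 699 to 736 CPM in Control), carried by Ly6c2 and Csf1r. Ly6c2 averaged 484 CPM in CUMS and 530 CPM in Control and was not called. The called genes were Csf1r (201 CPM in CUMS and 176 CPM in Control), F13a1 and Fn1. F13a1 and Fn1 had 3.07 and 7.30 CPM in CUMS and 1.21 and 2.80 CPM in Control. Of 8 eosinophil markers 2 were called higher, all 8 had positive fold changes, and their median log2 fold change was 1.57. Their sum, carried by Siglecf and Ear2, was 51.6 to 60.1 CPM in CUMS and 44.9 to 51.9 CPM in Control. The granule genes Prg2 and Epx averaged 4.82 and 1.49 CPM in CUMS and 0.885 and 0.119 CPM in Control. The 10 B cell markers summed to between 33.1 and 37.7 CPM in CUMS and between 22.8 and 30.2 CPM in Control, and the 6 plasma cell markers, with Tnfrsf17 at 0 in every library, to between 6.67 and 7.45 CPM in CUMS and between 4.93 and 5.63 CPM in Control, with 0 called in either. The 7 basophil and mast cell markers summed to between 818 and 849 CPM in CUMS and between 1050.1 and 1067 CPM in Control, nearly all of it Hdc, the 1 gene called (lower). The sums of the T and NK cell (10 genes), megakaryocyte (6) and progenitor (6) markers overlapped between groups, with 0 genes called in these lists. The part of these cells in the results for Zfp36, Btg2 and Dusp6 was not tested.

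Zfp36 encodes tristetraprolin, the AU-rich element binding protein that limits TNF and other inflammatory messages. Its level was 747, 722 and 747 CPM in CUMS replicates 1 to 3, against 1013, 941 and 909 CPM in Control replicates 1 to 3. Every CUMS library lay below every Control library, and the Control libraries were more spread. The means were 739 ± 14.5 CPM in CUMS and 955 ± 53.5 CPM in Control (SD, n = 3 each), so the level fell by 22.6%. The log2 fold change was −0.37 ± 0.044 (SE; 95% confidence interval −0.47 to −0.27; edgeR adjusted p = 0.00064). The exact two-sided permutation test gave p = 0.1 for Zfp36, the smallest that 3 against 3 libraries allow.

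Zfp36l2, a paralogue with the same tandem zinc fingers, was second in its family in CPM and in CPM per kb. It measured 478, 509 and 495 CPM in CUMS libraries and 535, 521 and 517 CPM in Control libraries. These values did not overlap, but they lay close together, the highest CUMS library at 509 CPM and the lowest Control library at 517 CPM. Its log2 fold change was −0.09 ± 0.039 (SE; interval −0.17 to −0.0018), and it was not called (edgeR adjusted p = 0.28). Zfp36l1, the paralogue lowest in CPM and in CPM per kb, had 41.3, 40.0 and 41.2 CPM in CUMS libraries and 44.0, 42.7 and 40.59 CPM in Control libraries. Those values overlapped, and its log2 fold change of −0.05 ± 0.057 (SE) had an interval of −0.18 to 0.07 (adjusted p = 0.72). That interval lies above the whole interval of Zfp36, and so does that of Zfp36l2.

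The summed CPM of the 3 family members was 1273 ± 9.02 in CUMS and 1521 ± 64.4 in Control (SD, n = 3 each), with no overlap. Zfp36 made up 58.0% ± 1.10 of that sum in CUMS libraries and 62.7% ± 0.85 in Control libraries. Set against Zfp36l2 in the same library, a ratio that needs no scaling, Zfp36 estimated counts were 156.3%, 141.9% and 151.0% in CUMS and 189.5%, 180.7% and 175.8% in Control. These ratios were chosen after the values were seen and carry no test.

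Btg1 and Btg2 encode small antiproliferative proteins, and Btg1 had the highest CPM of the 10 genes, not corrected for length. Btg1 had 1456, 1383 and 1455 CPM in CUMS libraries and 1381, 1397 and 1329 CPM in Control libraries, and the groups overlapped. Its log2 fold change was 0.06 ± 0.037 (SE; interval −0.02 to 0.14; adjusted p = 0.42). Btg2, a target of p53 in other cell types, went the other way. It had 515, 500 and 524 CPM in CUMS libraries and 657, 641 and 618 CPM in Control libraries. The highest CUMS library, at 524 CPM, lay well below the lowest Control library, at 618 CPM. The means were 513 ± 12.2 CPM in CUMS and 639 ± 19.6 CPM in Control (SD, n = 3 each), and Btg2 fell by 19.7% (log2 fold change −0.32 ± 0.039 SE; interval −0.40 to −0.23; edgeR adjusted p = 9.0e-04; exact permutation p = 0.1).

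Tob1, an adaptor with a C-terminal region that binds poly(A)-binding protein, had 127, 125 and 117 CPM in CUMS libraries and 126, 127 and 125 CPM in Control libraries. Only CUMS replicate 3 lay apart from the other 5 libraries. The log2 fold change was −0.04 ± 0.046 (SE; interval −0.14 to 0.07; adjusted p = 0.79). The summed CPM of Btg1, Btg2 and Tob1 was 2067 ± 51.5 in CUMS and 2134 ± 53.3 in Control (SD, n = 3 each), and the groups overlapped. Within a library, Btg2 estimated counts were 35.3%, 36.2% and 36.0% of those of Btg1 in CUMS and 47.6%, 45.9% and 46.5% in Control. The balance within the family therefore differed more than its sum, a description with no test.

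Dusp1, the nuclear phosphatase of p38 and JNK, had 991, 943 and 934 CPM in CUMS libraries and 1109, 1028 and 1013 CPM in Control libraries. The groups did not overlap, with CUMS replicate 1 at 991 CPM nearest to Control replicate 3 at 1013 CPM. The log2 fold change was −0.14 ± 0.043 (SE; interval −0.23 to −0.04), and it was not called (edgeR adjusted p = 0.12). DESeq2 called Dusp1 (adjusted p = 0.028) in a fit that called 10.4% of genes. limma's voom with quality weights called it too (adjusted p = 0.037), in a fit that called 6.04%. Dusp1 was called in 3 of 14 alternatives, the third being a fit with replicate number as a block. With any 1 library left out it was not called. Its edgeR adjusted p there ran from 0.064 without CUMS replicate 1 to 0.39 without CUMS replicate 3. The call of Dusp1 therefore depends on the fit, while its direction was the same in all 14 alternatives.

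Dusp6 moved opposite to Zfp36 and Btg2. This cytoplasmic phosphatase is specific to ERK and is itself induced by ERK signalling in many cell types. It had 175, 170 and 168 CPM in CUMS libraries and 140, 130 and 137 CPM in Control libraries. Every CUMS library lay above every Control library by at least the whole spread within either group. The means were 171 ± 3.58 CPM in CUMS and 136 ± 4.99 CPM in Control (SD, n = 3 each), a rise of 25.9% (log2 fold change 0.33 ± 0.044 SE; interval 0.23 to 0.43; edgeR adjusted p = 0.0016; exact permutation p = 0.1).

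Dusp5, a nuclear phosphatase also specific to ERK, had 12.7, 13.7 and 15.1 CPM in CUMS libraries and 14.1, 12.7 and 14.9 CPM in Control libraries. The groups overlapped fully, with a log2 fold change of −0.01 ± 0.10 (SE; interval −0.24 to 0.22; adjusted p = 0.98). Dusp2, a nuclear phosphatase known from activated leukocytes, had 4.24, 3.34 and 3.74 CPM in CUMS libraries and 3.73, 3.54 and 4.94 CPM in Control libraries. With 4 units taken as 1 read pair, it rested on 73.25 to 104.8 read-pair equivalents a library. Its log2 fold change of −0.11 ± 0.18 (SE) had an interval of −0.50 to 0.28 (adjusted p = 0.83). That interval contains a change as large as that of Zfp36. Dusp6 counts were 17.6%, 18.03% and 17.97% of Dusp1 counts in CUMS libraries and 12.6%, 12.7% and 13.5% in Control libraries, while the summed CPM of the 4 DUSP genes overlapped at 1145 ± 33.5 in CUMS and 1204 ± 55.0 in Control (SD, n = 3 each).

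**Figure D2:**
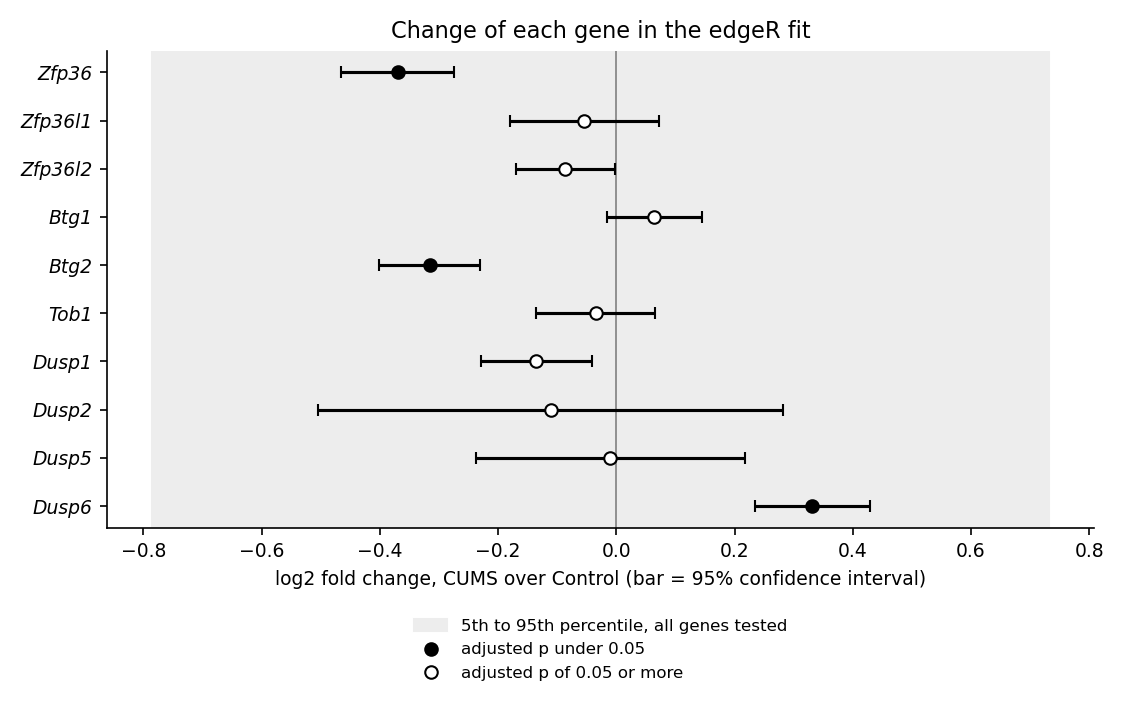
Log2 fold change (CUMS over Control) of the 10 genes with 95% confidence intervals from the edgeR fit, filled where the adjusted p was under 0.05. The grey band spans the 5th to 95th percentile of all genes tested, −0.79 to 0.73, and all 10 points lie inside it.

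**Figure D3:**
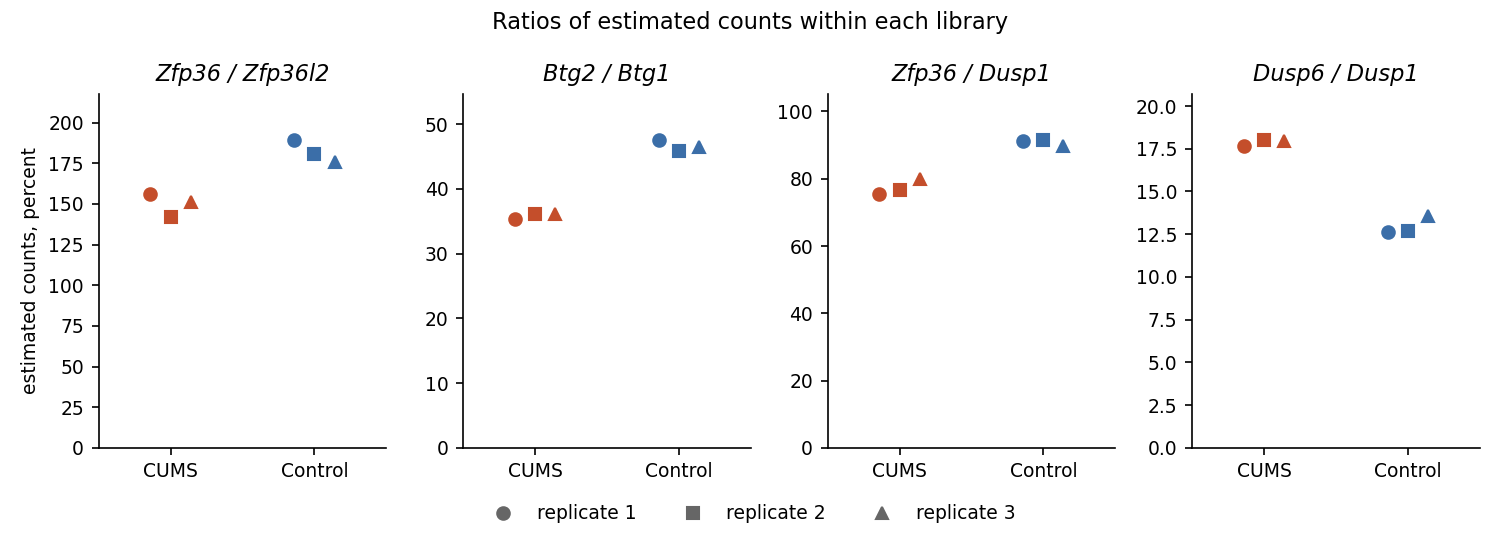
Ratios of estimated counts within each library, in percent, for 4 pairs of genes in CUMS (left) and Control (right) libraries, on axes that start at 0. The 3 ratios with Zfp36 or Btg2 on top were lower in every CUMS library, and Dusp6 over Dusp1 was higher in every CUMS library.

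All 10 genes together took 0.449% ± 0.0045 of the estimated counts in CUMS and 0.485% ± 0.014 in Control (SD, n = 3 each), with no overlap. Levels between genes are compared per kilobase of 1 annotated transcript. On that scale, and with the transcripts taken, Dusp1 was highest at 480 CPM per kb in CUMS and 528 in Control. Btg1 followed at 286 CPM per kb in CUMS and 274 in Control, and Zfp36 measured 265 CPM per kb in CUMS and 342 in Control. Btg2 had 187 CPM per kb in CUMS and 233 in Control, and Zfp36l2 had 140 in CUMS and 148 in Control. Dusp6 stood at 61.1 CPM per kb in CUMS and 48.6 in Control, on a transcript of 2796 bases. That put it above Tob1 (53.7 and 55.0) in CUMS and below it in Control. On its annotated transcript of 2359 bases the Control level of Dusp6 would be 57.6 CPM per kb, above Tob1. The change of place between Dusp6 and Tob1 therefore depends on the transcript taken. Zfp36l1, Dusp5 and Dusp2 were lowest, at 13.7, 5.59 and 2.33 CPM per kb in CUMS and 14.2, 5.63 and 2.52 in Control. Zfp36 and Btg1 also exchanged places between the groups. Zfp36 has annotated transcripts of 2465 and 2790 bases, and a Control level of 342 to 387 CPM per kb. Its exchange with Btg1 therefore depends on the transcripts taken. The order of Btg1 depends on the transcript taken, since its annotated transcripts run from 668 to 5001 bases and the Control level from 274 to 2049 CPM per kb. The same holds for Zfp36l1, with transcripts of 292 to 2990 bases and a Control level of 14.2 to 145.3 CPM per kb, a range that spans Tob1 and Dusp6.

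Annotated antisense or long noncoding genes overlap Zfp36 (Gm44710), Zfp36l1 (Gm26669), Zfp36l2 (AC132455.1) and Dusp5 (AC137853.2). The strand setting of the library and the counting is not given in the sources used here, so reads of those partners cannot be told apart from the gene's own. The near copies Btg1b, Btg1c, Zfp36l1-ps and Zfp36l3 had 0 estimated counts in all 6 libraries.

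The genes with the most similar profile were named by a fixed rule for the 3 of the 10 with the highest mean CPM. Likeness was the root mean square difference of centred log2 CPM over 6 libraries among 6445 genes with a mean of at least 10 CPM, where a smaller value means more alike. For Zfp36 the nearest were Clec4e (0.0358), a C-type lectin receptor, Btg2 (0.0363) and Il1b (0.0372), the message of interleukin-1 beta. Btg2 is itself 1 of the 10 genes. For Btg1 the nearest were Mgat1, Dnajb6 and Dlg1 (0.0126 to 0.0147), and for Dusp1 they were Oasl1, Gm10359 and Pqbp1 (0.0167 to 0.0184). These are descriptions over the same 6 libraries and carry no p.

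In the 3 lists of decay enzymes the counts of called genes were 0 of 16, 0 of 15 and 1 of 16, near the 4.5% called among all genes. The deadenylation list holds the CCR4-NOT genes, whose complex Zfp36, Btg and Tob proteins recruit, and also Pan2, Pan3, Parn, Tnks1bp1 and Pabpc1. In it, 0 of 16 genes were called in either direction by edgeR. In that list 3 had an unadjusted p under 0.05, and DESeq2 called 2 higher. The 3 were Cnot1 (198 CPM in CUMS and 184 CPM in Control), Cnot6l (69.2 and 60.02 CPM) and Cnot11 (23.9 and 19.9 CPM), all higher in CUMS, and the median log2 fold change of the list was 0.02. Among the 15 exosome genes 0 were called by edgeR and 0 by DESeq2, with 2 at an unadjusted p under 0.05 and a median of −0.03. In the decapping list, 1 of 16 tested genes was called lower, and DESeq2 called 2 lower and 1 higher. Lsm3, a subunit of the LSM ring that binds deadenylated ends, had 5.87 ± 0.29 CPM in CUMS and 8.21 ± 0.50 CPM in Control (SD, n = 3 each; log2 fold change −0.48 ± 0.12 SE; edgeR adjusted p = 0.045). The call of Lsm3 was lost without any 1 of the 6 libraries and in 8 of 14 alternatives in all (adjusted p 0.0588 to 0.171 there).

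Of 16 other stability factors, which include Elavl1, Hnrnpd and the Regnase and Roquin genes, 1 was called. Arid5a, a protein known to protect the Il6 message from decay, had 98.1 ± 4.93 CPM in CUMS and 115 ± 7.34 CPM in Control (SD, n = 3 each; log2 fold change −0.23; edgeR adjusted p = 0.047). Its call was lost in 7 of 14 alternatives (adjusted p 0.0511 to 0.182), among them the fits without any 1 library except Control replicate 2. Among relatives of the 10 genes, 6 of 10 reached testable counts and 0 were called by edgeR or DESeq2. In that list 1 had an unadjusted p under 0.05, Dusp16, a phosphatase of JNK and p38, with 5.77 ± 0.34 CPM in CUMS and 7.59 ± 0.62 CPM in Control (SD, n = 3 each; adjusted p = 0.12).

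Of 17 messages known as tristetraprolin targets 12 were tested, and 5 were called lower and 1 higher. Over all genes tested 2.14% were called lower and 2.36% higher, and 12.4% of those with a mean of at least 100 CPM were called. The fold change was negative for 8 of the 12 targets, with a median log2 fold change of −0.14. Il1b had 608 ± 17.1 CPM in CUMS and 776 ± 39.8 CPM in Control (SD, n = 3 each; log2 fold change −0.35, edgeR adjusted p = 0.0010). The chemokine message Cxcl2 had 337 ± 5.75 CPM in CUMS and 480 ± 38.3 CPM in Control (SD, n = 3 each; log2 fold change −0.51, edgeR adjusted p = 3.2e-04). Ier3, an early-response survival gene, had 26.7 CPM in CUMS and 37.2 CPM in Control (log2 fold change −0.48). These 3 were called in all 14 alternatives.

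Mcl1, the neutrophil survival factor, had 1199 CPM in CUMS and 1316 CPM in Control (log2 fold change −0.13, adjusted p = 0.038), and Plaur, the urokinase receptor, had 436 CPM in CUMS and 498 CPM in Control (−0.19, adjusted p = 0.020). Ccl3, a chemokine, moved the other way with 8.74 CPM in CUMS and 5.98 CPM in Control (log2 fold change 0.55, adjusted p = 0.022). Tnf, the classical target, measured 17.1 ± 0.72 CPM in CUMS and 21.04 ± 1.17 CPM in Control (SD, n = 3 each) and was not called (log2 fold change −0.30, edgeR adjusted p = 0.065). The call of Plaur was lost without CUMS replicate 2, CUMS replicate 3, Control replicate 2 or Control replicate 3 (adjusted p 0.0541 to 0.115). That of Mcl1 was lost without the same 4 or CUMS replicate 1 and in 3 other settings (0.0507 to 0.185). With 1 library left out, 3 targets were called lower without CUMS replicate 2, CUMS replicate 3, Control replicate 2 or Control replicate 3, and 4 without CUMS replicate 1. Ccl3 lost its call without any 1 library except CUMS replicate 1 (adjusted p 0.0634 to 0.112). In the 3′UTRs, TTATTTATT was found 5 times in Tnf, 4 times in Cxcl2, 2 times in Lif and 1 time in Ptgs2. Lif and Ptgs2 were not called (edgeR adjusted p = 0.97 and 0.18). The shorter TATTTAT was found 8 times in Tnf, 7 in Cxcl2, 4 in Ier3, 3 each in Il1b and Mcl1, and 1 time in Ccl3. Ptgs2 held 6 copies of it and Lif 5. Neither element was found in Plaur, which was called lower, or in Ccl2, Myc and Vegfa, which were not called. That covers only the 1 annotated transcript searched per gene, in which the 3′UTR of Vegfa was 315 bases long.

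In the MAP kinase cascade, the substrates and upstream kinases of the DUSP genes, 2 of 35 genes were called, both higher, and the median log2 fold change was 0.07. Over all genes tested 2.36% were called higher. Map3k3, a kinase upstream of several MAP kinase modules, had 560 ± 14.8 CPM in CUMS and 468 ± 16.3 CPM in Control (SD, n = 3 each; log2 fold change 0.26, edgeR adjusted p = 0.0040). Map3k3 was called in all 14 alternatives. Braf, which activates the ERK branch, had 298 ± 16.02 CPM in CUMS and 245 ± 19.3 CPM in Control (SD, n = 3 each; log2 fold change 0.28, edgeR adjusted p = 0.021). The call of Braf was lost without CUMS replicate 2, CUMS replicate 3, Control replicate 1 or Control replicate 3 (adjusted p 0.0537 to 0.118). The list had 4 calls without CUMS replicate 1, 1 call in each of those 4 fits, and 7 by DESeq2, all higher.

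Sprouty and Spred proteins restrain signalling upstream of ERK, the kinase that Dusp6 acts on, and 3 of the 7 genes were tested. Spred2 fell, with 23.8, 22.2 and 18.9 CPM in CUMS libraries and 29.1, 32.6 and 29.6 CPM in Control libraries (log2 fold change −0.49 ± 0.090 SE; edgeR adjusted p = 0.010). Without Control replicate 2 its adjusted p was 0.066. Spry2 had 3.54 ± 0.47 CPM in CUMS and 5.17 ± 0.89 CPM in Control (SD, n = 3 each; log2 fold change −0.55, edgeR adjusted p = 0.12). Spred1 had 1.91 ± 0.17 CPM in CUMS and 2.97 ± 0.31 CPM in Control (SD, n = 3 each; log2 fold change −0.64, edgeR adjusted p = 0.098). The negative regulators of the ERK branch thus had different signs, with Dusp6 called higher and Spred2 called lower.

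Immediate early transcription factors are rapidly transcribed genes of the same kind as Zfp36, Btg2 and Dusp1, and 7 of the 19 were called lower and 1 higher (median log2 fold change −0.16). Over all genes tested 2.14% were called lower and 2.36% higher. Of the 1927 genes with a mean of at least 100 CPM, 67 were called lower and 172 higher. Junb, an AP-1 subunit, had 320 ± 8.96 CPM in CUMS and 482 ± 9.19 CPM in Control (SD, n = 3 each; log2 fold change −0.59, edgeR adjusted p = 1.2e-05). Fosl2 had 711 CPM in CUMS and 843 CPM in Control (log2 fold change −0.25). Junb and Fosl2 were called in all 14 alternatives. Fos (−0.19), Jun (−0.27), the orphan nuclear receptor Nr4a1 (−0.39), the zinc finger factor Egr1 (−0.20) and Ier2 (−0.18) were also called lower on the log2 scale, and Klf6, another zinc finger factor, was called higher (0.18). Calls were lost in 2 alternatives for Nr4a1, 3 each for Fos and Jun, 4 for Klf6, 7 for Egr1 and 9 for Ier2 (adjusted p 0.0508 to 0.219). With 1 library left out the number called lower was 5 without CUMS replicate 1 or Control replicate 1, 4 without CUMS replicate 2, 3 without CUMS replicate 3 or Control replicate 3, and 2 without Control replicate 2.

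**Figure D4:**
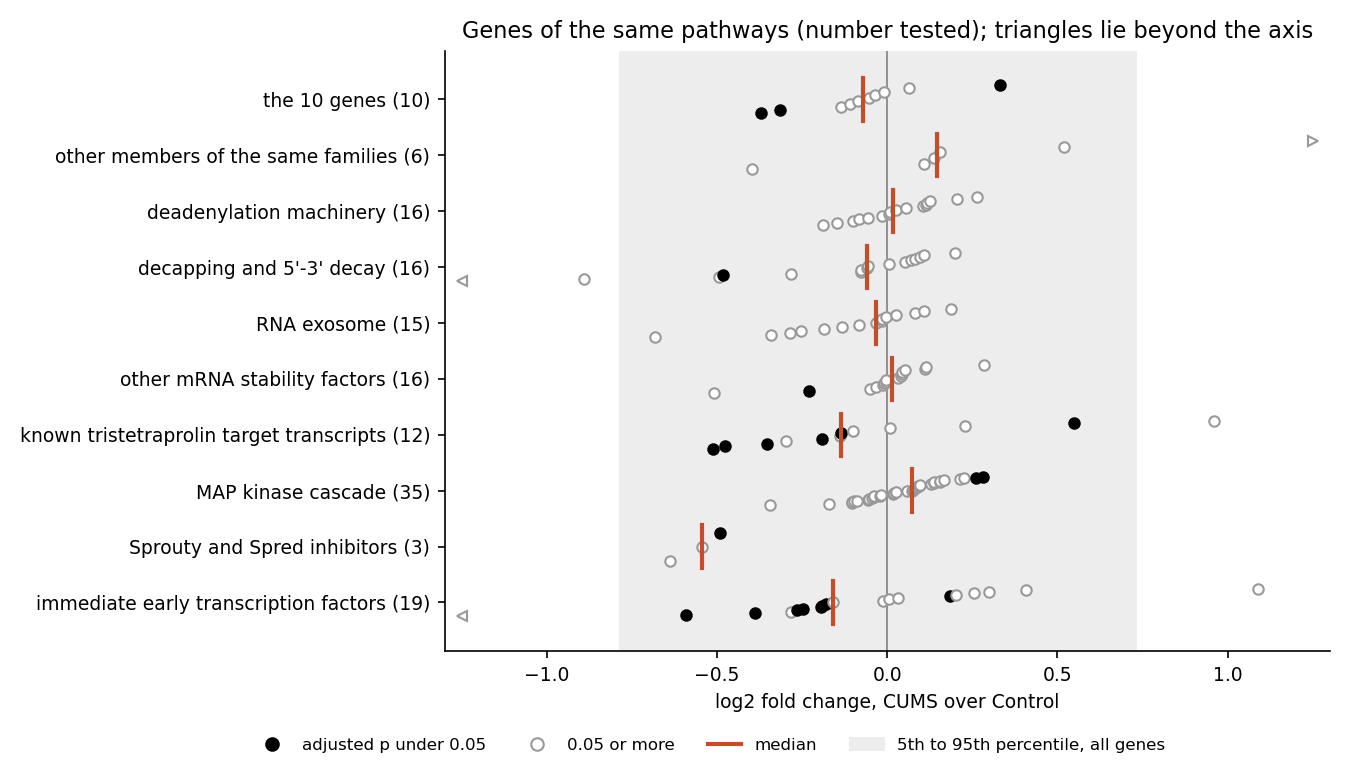
Log2 fold changes (CUMS over Control) of the 10 genes and of 9 related gene lists, 1 symbol per tested gene, with black symbols called, red bars for list medians and the grey band as the 5th to 95th percentile of all genes. The target list (median −0.14) and the immediate early list (median −0.16) hold most of the genes called lower.

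**Figure D5:**
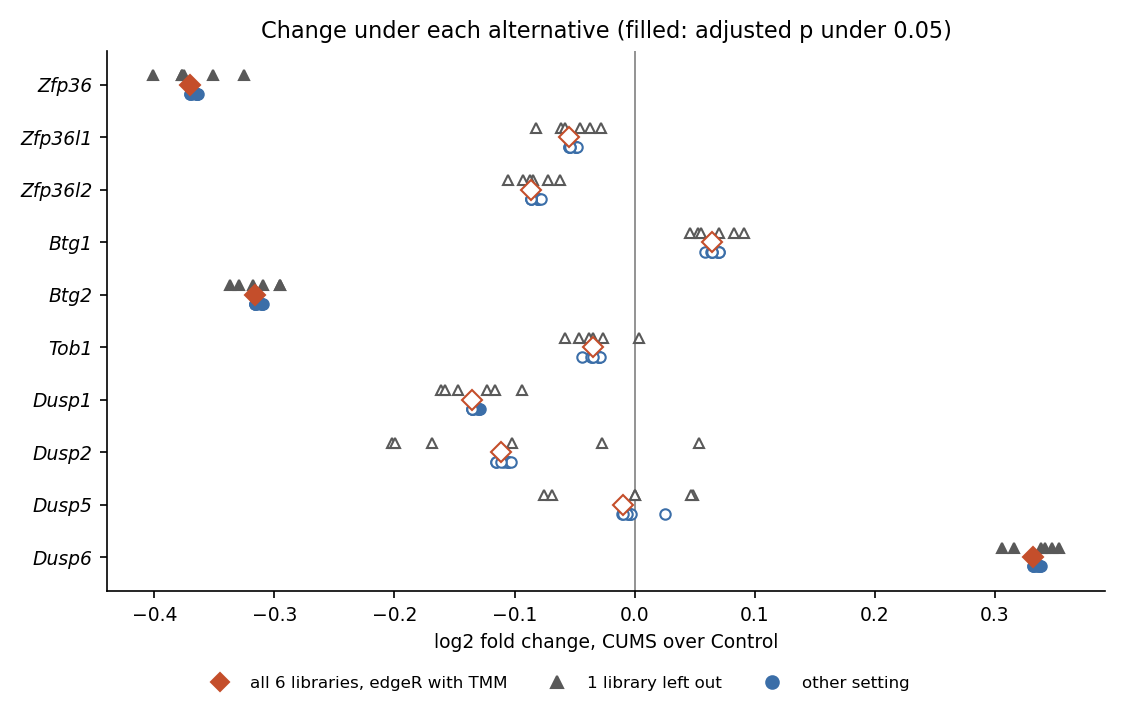
Log2 fold change of each of the 10 genes in the main edgeR fit (red diamonds), with 1 library left out (triangles) and under the other 8 settings (blue circles), filled where the adjusted p was under 0.05. Zfp36, Btg2 and Dusp6 are filled throughout, and Dusp1 in 3 of 14 alternatives.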

How the data were processed

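RNA from sorted marrow neutrophils was sequenced in 6 libraries as pairs of 150 bp from 1 µg of RNA with a TruSeq kit, per the labels' protocols. Build mm10 is listed in the submitters' processing notes, as are HISAT2 2.1, featureCounts 1.6.4, DESeq2 2.11.40.6, cutadapt 1.16.5 and bcl2fastq 2.19. Each deposited value is a whole number, taken here as an estimated count, since multiples of 4 are in excess and 1588 of 47561 rows carry identifiers of assembled transcripts.

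The highest row was kept where a symbol had several. Deposited estimated counts were fitted as they stood with edgeR 4.0.16 in R 4.3.3 (filterByExpr, TMM, quasi-likelihood F test, group as the single term, Benjamini-Hochberg adjustment), a procedure tested on simulated data. Confidence intervals are at 95% and cover the spread between libraries. DESeq2 1.42.0, limma 3.58.1 (voom) and leaving out each library were among 14 alternatives.

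The 10 genes and the gene lists were chosen with earlier results of these data known. All 10 were to be named, and in each list every called gene where there were 8 or fewer. Ratios within libraries were added later. The labels do not say that replicate numbers pair the libraries. Deviations of same-numbered libraries were barely correlated over all genes tested (−0.026 to 0.0081), which cannot exclude pairing.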

Additional observations from a re-analysis of the deposited data

How the results depend on the processing

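Zfp36, Btg2 and Dusp6 were called in all 14 alternatives, with log2 fold changes of −0.40 to −0.33, −0.34 to −0.30 and 0.31 to 0.35 and highest adjusted p-values of 0.0079, 0.011 and 0.013. The number of the 10 genes called was 3 or 4, the fourth being Dusp1 under DESeq2, voom with quality weights and the replicate block (adjusted p = 0.020 with the block). The sign of the small fold changes of Tob1, Dusp2 and Dusp5 was not the same in every alternative, and none of the 3 was called in any. Over all genes, 710 were called, against 1146 by DESeq2, 931 with the replicate block, and 305 to 697 with 1 library left out, the lowest without CUMS replicate 3. Leaving out CUMS replicate 2 gave 351, and the Control replicates gave 470, 337 and 348 in their order. Over the 9 related lists, 19 genes were called, against 31 by DESeq2 and 8 to 17 with 1 library left out. The cause of these shifts in number was not tested. Same-numbered libraries did not deviate together over all genes tested (correlations 0.0081, 0.0034 and −0.026). That cannot exclude pairing, which the labels do not state, so the block is given as an alternative only. Dusp2 rested on 73.25 to 104.8 read-pair equivalents a library at the assumed factor. Its CPM had a coefficient of variation of 12.02% in CUMS and 18.6% in Control.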

Other observations

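Messages with the tristetraprolin-type element were also looked at over the whole table, a grouping chosen after the data were seen. Among tested genes with an annotated 3′UTR, 652 held TTATTTATT once, and their median log2 fold change was 0.0039, with 3.37% called higher and 3.22% lower in CUMS. The 159 genes with 2 or more copies had a median of −0.012, with 1.89% called higher and 3.14% lower. The 10594 genes without the element had a median of −0.0025, with 2.82% called higher and 2.64% lower. Median 3′UTR length differed between these classes, at 2043 bases with 1 copy, 2699 with 2 or more and 878 without, so the classes differ in more than the element. No test was made of the differences, which are given as values.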
